A study of Mus musculus with 6 samples.

Results

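Blood vascular endothelial cells were taken from all 6 single-cell libraries of the series by their transcripts. A cell barcode was counted as a member if it held at least 1000 unique molecular identifiers (UMIs, each standing for 1 captured transcript), at least 200 genes, at most 5% mitochondrial UMIs, at least 1 UMI each of Cdh5 and Pecam1, and no UMI of Ptprc, Pdgfra, Prox1 or Mmrn1. Cdh5 (VE-cadherin) and Pecam1 (CD31) are junction proteins of endothelial cells, Ptprc marks leukocytes, Pdgfra fibroblasts, and Prox1 and Mmrn1 lymphatic endothelium. The rule found 5552 members among 63329 barcodes within the UMI, gene and mitochondrial limits and 84194 deposited barcodes. Because the rule read the counts themselves, the levels of these 6 genes in the members are a description and not a finding.

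Achilles tendons of Gli1-CreERT2; Ai9 mice were studied after tenotomy, an injury that is followed by ectopic cartilage and bone. All mice carried the tamoxifen-inducible Cre under the control of Gli1 and the Ai9 tdTomato reporter, and all received tamoxifen, the uninjured controls included. Uninjured tendons and tendons at 7 and 21 days post injury (dpi) came from 8 mice each, and cells were separated by FACS into Gli1+ and Gli1- fractions, giving 1 library per condition. Gli1+ names the reporter-labelled lineage and not cells that hold a Gli1 transcript at the time of sorting, and the sources used here give neither an age nor a map from libraries or cells to single mice. The labelled cell type is tendon cells, so endothelial cells are a fraction that the sort did not select for.

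Blood vascular endothelium lines arteries, capillaries and venules, and its cells differ in gene expression along that path. Capillary cells of fat-using tissues take up lipids and carry receptors for VEGF, whereas venular cells display P-selectin and E-selectin, which let leukocytes roll and leave the blood when tissue is inflamed. In a wound, endothelial cells also divide and sprout, and tip cells at the front of a sprout switch on a characteristic set of genes such as Apln.

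Between 7516 and 12113 barcodes per library stayed within the limits. Libraries shared 27 to 75 barcode sequences with each other, and no barcode of a member occurred in more than 1 library among the members. Sex-linked transcripts went against the equal sex distribution given in the labels. Among the members, 121 and 61 cells of the Gli1+ uninjured library held only Xist and only Y-linked UMIs, respectively. The Gli1- uninjured library held 0 and 1456 such cells, both 7 dpi libraries held no Xist-only member, and the 21 dpi libraries held 188 and 1049 Xist-only members with 0 and 1 Y-only members. The uninjured sorts thus differed in the sexes they held, although the labels give 1 set of mice for both. Time point and sex cannot be told apart in the Gli1- libraries at 21 dpi. In the Gli1+ libraries the comparison of 21 dpi with uninjured tendon could be repeated in Xist-only cells, and that of 7 dpi in Y-only cells of both sorts. Values of leading genes in these cells are given beside the results.

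Members were far more frequent in the Gli1- than in the Gli1+ fraction. In uninjured tendon 319 of the Gli1+ barcodes within the limits were members, which was 4.24% (95% exact binomial interval 3.80 to 4.72), against 2908 Gli1- barcodes or 24.0% (23.2 to 24.8). At 7 dpi the shares were 0.924% (0.746 to 1.13, 93 cells) in the Gli1+ and 6.31% (5.86 to 6.79, 688 cells) in the Gli1- library. At 21 dpi they were 2.04% (1.78 to 2.32, 218 cells) and 11.0% (10.5 to 11.6, 1326 cells). In both sorts the share was lowest at 7 dpi and lay between the other time points at 21 dpi, and none of the intervals overlapped within a sort. A share depends on how many other cells were sorted beside the members, and with 1 library per condition the spread between mice is unknown. These intervals, like all others given for single libraries, cover counting error only.

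**Figure D1:**
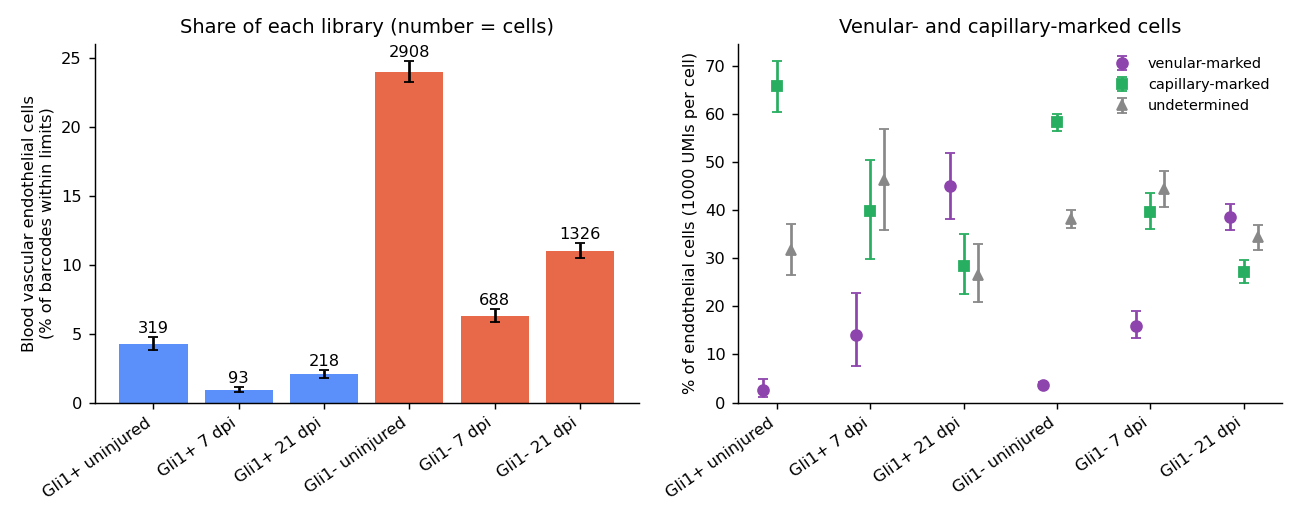
Share of barcodes within the limits that were blood vascular endothelial cells, in percent, for the 6 libraries with the number of members above each bar (left), and percent of members that were venular-marked, capillary-marked or undetermined after thinning to 1000 UMIs, classes that are defined further on (right). Bars and points are single libraries and whiskers the 95% exact binomial intervals, which cover counting error only; the share of members was 24.0% in the uninjured Gli1- library and 6.31% or less in both 7 dpi libraries, and the venular-marked share was highest in both 21 dpi libraries, at 45.0% and 38.5%.

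The members were shallower than the cells around them. Their median depth was 4835, 4123 and 7068 UMIs in Gli1+ members at uninjured, 7 dpi and 21 dpi, and 3068.5, 2989 and 5695.5 UMIs in the Gli1- libraries. All barcodes within the limits had medians of 8030.5, 9264 and 9023 UMIs (Gli1+) and 4536, 10240 and 8258.5 UMIs (Gli1-). The rule asks for detection of 2 genes, so shallow endothelial cells can be missed. Just inside its edge, 11, 15 and 6 Gli1+ members and 203, 83 and 88 Gli1- members held exactly 1 UMI of each gene. Just outside it, 94, 75 and 82 Gli1+ and 559, 269 and 268 Gli1- barcodes held Cdh5 without Pecam1, and 104, 148 and 145 Gli1+ and 742, 367 and 552 Gli1- barcodes held Pecam1 without Cdh5.

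As a sum, endothelial markers that the rule did not use were also high in the members. Levels are given as UMIs of a gene per 1000000 UMIs of all genes (CPM), both summed over the members of a library, and their 95% intervals are exact Poisson intervals. The 19 endothelial marker genes other than Cdh5 and Pecam1 summed to between 6069 and 10257 CPM in the members of the 6 libraries, against 269.6 to 1693 CPM in the other barcodes. Cd34 of that list was not raised in uninjured members. It stood at 176 and 235 CPM in Gli1+ and Gli1- members there, against 179 and 471 CPM in the other barcodes. In the injured libraries Cd34 was higher in the members. Emcn, the endothelial sialomucin endomucin, stood at 509.9, 416 and 1016 CPM in Gli1+ members and at 456, 584 and 1023 CPM in Gli1- members, in the order uninjured, 7 dpi and 21 dpi. Its level was higher in both 21 dpi libraries than in the other 4. Flt1, the decoy receptor of VEGF, stood at 3110.3, 1009.6 and 1309 CPM in Gli1+ and at 2616, 989 and 1176 CPM in Gli1- members, with both uninjured libraries above the injured ones. The 6 lymphatic markers other than Prox1 and Mmrn1 summed to between 53.8 and 113 CPM in the members and to between 2006 and 11087 CPM in lymphatic endothelial cells of the same libraries. The latter were the 372 barcodes with Cdh5, Pecam1 and at least 2 UMIs of Prox1 and Mmrn1 together.

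RNA of other cell types moved with injury in the members. The 8 fibroblast markers, of which Pdgfra is at 0 by the rule, summed to 435, 12253 and 4774 CPM in Gli1+ members and to 1540, 10897 and 6840 CPM in Gli1- members, in the order uninjured, 7 dpi and 21 dpi. In the other barcodes they summed to 12149, 37113 and 44419 CPM and to 23639, 50351 and 41493 CPM, and in lymphatic endothelial cells to 383, 12471 and 3107 CPM and to 1201, 9145 and 5792 CPM. The injured libraries were thus above the uninjured ones in all 3 populations. The 6 epidermal markers summed to 70.3, 4710 and 444 CPM in Gli1+ members and to 11.5, 60.2 and 79.9 CPM in Gli1- members, so that the Gli1+ library at 7 dpi stood apart. The 10 pericyte and smooth muscle markers went the other way, with 2485, 1825 and 719 CPM in Gli1+ members and 3101, 1547 and 823 CPM in Gli1- members. The 6 platelet and erythroid markers were at 5365, 28.5 and 39.2 CPM in Gli1+ and at 4030, 649 and 242 CPM in Gli1- members. These were mostly UMIs of the hemoglobin genes Hbb-bs and Hba-a1, except in the injured Gli1+ libraries, where Hbb-bs and Hba-a1 held 3 and 1 of 15 UMIs at 7 dpi and 24 and 6 of 67 at 21 dpi. Immune markers stayed between 11.9 and 97.5 CPM, Schwann cell markers between 1.75 and 97.9 CPM, and skeletal muscle markers between 7.02 and 57.9 CPM. Of all members, 57.7%, 100% and 64.7% (Gli1+) and 70.8%, 58.3% and 48.0% (Gli1-) held a UMI of Rgs5, Pdgfrb, Krt5, Krt14, Lyve1 or Ccl21a, genes of other cell types. The part of this RNA in the changes with time was not tested, and values without those cells are given beside the main results. That set of genes holds no fibroblast or hemoglobin gene, so cells with such RNA were kept. Without those cells the Gli1- log2 ratio of 7 dpi over uninjured tendon was still 5.66 for Tnn and 4.73 for Sfrp2.

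Levels were compared between each injured time point and uninjured tendon within each sort. A gene was counted as higher or lower when its level differed at least 2-fold in the same direction in both sorts, among genes with at least 20 UMIs in 1 of the 2 libraries of each sort. A scarce gene can pass this minimum through 1 time point only, above all where depth differs. Gli1+ members held 525931 UMIs at 7 dpi and 1876978 in uninjured tendon. The difference itself then bears on which genes were counted, over all genes and in the lists. No test was made between time points, since each condition had 1 library. The labels give 1 set of 8 mice per time point for both sorts, so the sorts were not taken as replicates of a time point. At 7 dpi 4.56% of 8979 genes were counted as higher and 5.54% as lower, and at 21 dpi 6.55% of 9469 genes as higher and 9.28% as lower. The median log2 ratio over all genes lay between -0.16 and -0.12 in the 4 comparisons, and log2 ratios below are given without moving them by this shift.

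Genes of venular endothelium were higher at 21 dpi. In this list 5 of 9 genes were counted as higher and 0 as lower at 21 dpi, against the 6.55% of all genes, with median log2 ratios of 2.95 in the Gli1+ and 2.60 in the Gli1- sort. At 7 dpi 4 of 9 were counted as higher, where 4.56% of all genes were, and 0 as lower, with medians of 0.51 and 1.38. Selp, which encodes P-selectin, stood at 271 CPM (interval 248 to 296), 224 (186 to 269) and 2405 (2332 to 2479) in Gli1+ members and at 200.3 (192 to 209), 522 (498 to 547) and 1879 (1852 to 1907) in Gli1- members, in the order uninjured, 7 dpi and 21 dpi. Both 21 dpi libraries were above all others, and the intervals of the uninjured and 7 dpi Gli1+ libraries overlapped, with a log2 ratio of -0.27 (-0.57 to 0.018). The log2 ratio of 21 dpi over uninjured tendon was 3.15 (95% interval 3.02 to 3.28) in the Gli1+ and 3.23 (3.17 to 3.29) in the Gli1- sort. In the Gli1+ uninjured library 495 of 509 Selp UMIs lay in the 121 Xist-only cells and 1 UMI in the 61 Y-only cells. Within Xist-only Gli1+ cells the 21 dpi ratio was 2.11. Y-only Gli1+ cells stood at 2.46 CPM (0.0622 to 13.7) in uninjured tendon and at 222 CPM (178 to 272) at 7 dpi, and Y-only Gli1- cells had a 7 dpi ratio of 1.15, unlike the ratio over all Gli1+ members given above.

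Ackr1, the atypical chemokine receptor of venules, stood at 11.7, 49.4 and 485 CPM in Gli1+ members and at 41.6, 211 and 431 CPM in Gli1- members. The 21 dpi ratio was 5.37 on the log2 scale (4.76 to 6.05) in the Gli1+ and 3.37 (3.23 to 3.52) in the Gli1- sort. Sele, which encodes E-selectin, stood at 28.2, 133 and 911 CPM and at 39.0, 314 and 680.4 CPM, which made it higher at each later time point in both sorts. Its 21 dpi ratio was 5.01 (4.62 to 5.44) and 4.13 (3.98 to 4.27). Icam1, the ligand of leukocyte integrins, stood at 152, 217 and 1173 CPM in Gli1+ and at 152, 294 and 949 CPM in Gli1- members. Lrg1, a secreted glycoprotein that modifies TGF-beta signalling, stood at 53.8, 203 and 749 CPM and at 143, 464 and 865 CPM. Vcam1, another leukocyte ligand, had its highest level at 7 dpi, with 13.9, 116 and 69.6 CPM in Gli1+ members and 40.1, 113 and 64.3 CPM in Gli1- members. Without members holding other cell types' markers its Gli1- log2 ratio was 0.76 at 7 dpi, under 2-fold, and 0.17 at 21 dpi. Not all venular genes moved. Vwf, the von Willebrand factor, stayed between 129 and 236 CPM, Nr2f2, a transcription factor of venous identity, between 145 and 254 CPM, and Ephb4, the venous ephrin receptor, between 45.6 and 123 CPM, and none of these 3 was counted in either direction.

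The 21 dpi ratios were also taken without the members that held a UMI of Rgs5, Pdgfrb, Krt5, Krt14, Lyve1 or Ccl21a. They were then 2.51 and 2.51 for Selp, 4.20 and 2.84 for Ackr1, and 3.93 and 3.35 for Sele in the Gli1+ and Gli1- sorts. Within Xist-only Gli1+ cells they were 4.50 for Ackr1, 3.96 for Sele, 2.91 for Icam1 and 2.97 for Lrg1. In Y-only Gli1+ cells of uninjured tendon Sele held 0 UMIs in 61 cells, Ackr1 held 2 UMIs and Lrg1 stood at 17.2 CPM (6.91 to 35.4), against 132 CPM (98.8 to 172), 48.7 CPM (29.8 to 75.2) and 207 CPM (165 to 256) at 7 dpi. The 7 dpi log2 ratios in Y-only Gli1- cells were 2.97 for Sele, 2.31 for Ackr1 and 1.58 for Lrg1.

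**Figure D2:**
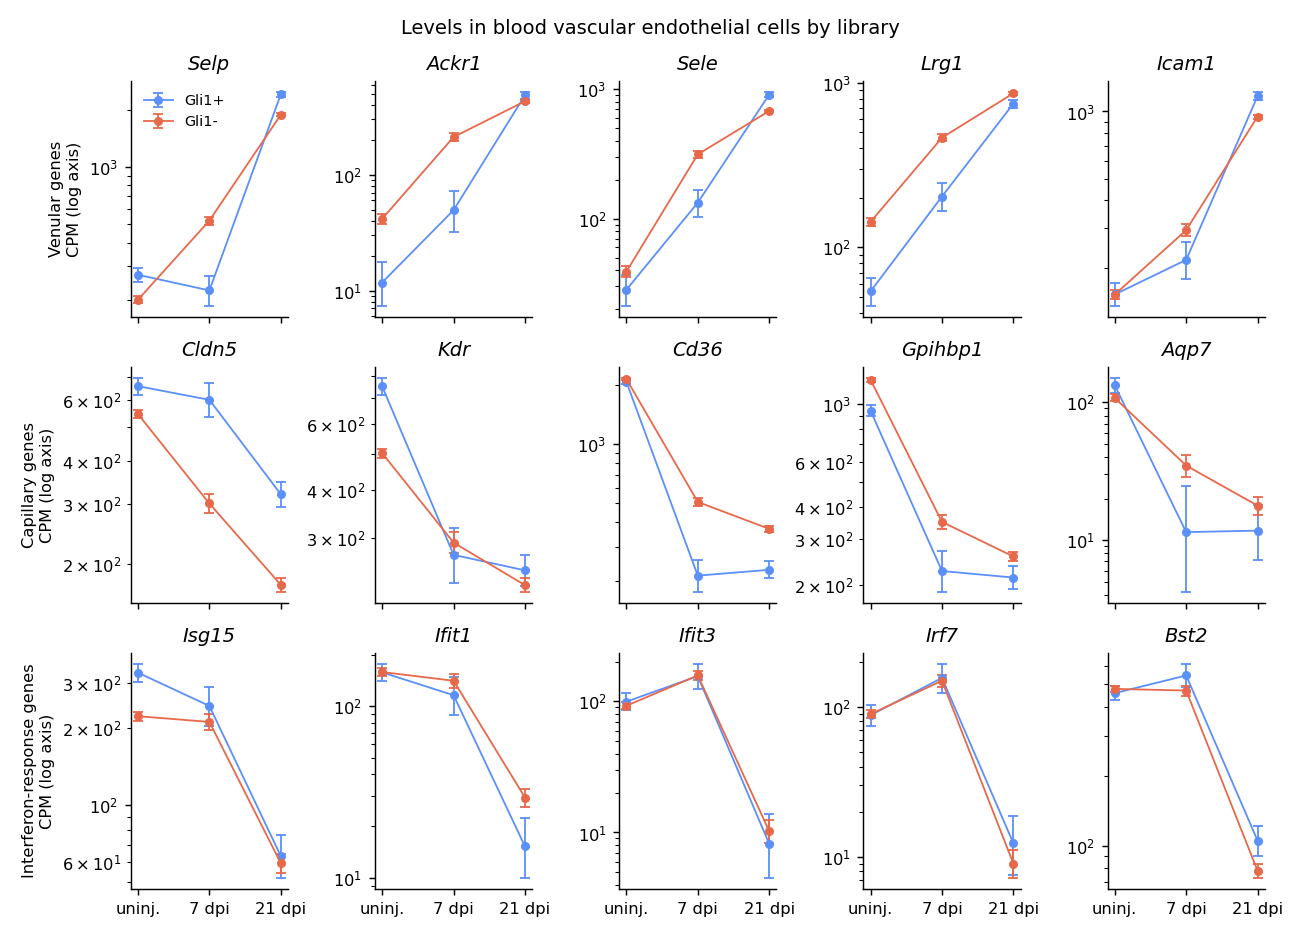
Level in CPM, on log axes that differ between panels, of 5 venular, 5 capillary and 5 interferon-response genes at each time point in Gli1+ (blue) and Gli1- members (red); points are single libraries and bars the exact Poisson 95% intervals. Selp, Ackr1, Sele, Lrg1 and Icam1 were highest in both 21 dpi libraries, Cd36, Gpihbp1, Kdr and Aqp7 in both uninjured libraries, and the interferon-response genes were lowest in both 21 dpi libraries.

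The promoters of both selectin genes are shown because both genes were counted as higher at 21 dpi, and because NF-kB, a factor activated by inflammatory cytokines, is known to act on them. A motif for it, the letters GGGA followed by any 4 bases and CC, was searched on both strands in windows from 250 bases before to 50 bases after each gene start (RefSeq, build GRCm38.p6). It was present in 20.7% of 32851 promoters in that table, and in 3 of the 6 promoters found for the leukocyte adhesion list, those of Selp, Sele and Madcam1. It was also present in 8 of 14 promoters of the antigen presentation and interferon list described below, of whose genes 10 of 13 were counted as lower at 21 dpi. The stretches below hold the motif in capitals, 5′ to 3′ on the gene's strand. A match describes letters in a window and not a bound site.
Sele, chr1:164048079-164048108, plus strand: ttaactcagtGGATATTCCCagaaaacttt
Selp, chr1:164115239-164115268, plus strand: ccaactttagGGGAAAGGCCgtgatacatt

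The leukocyte adhesion list as a whole had 4 of 9 genes counted as higher and 0 as lower at 21 dpi, namely Selp, Sele, Icam1 and Ackr1, and 3 and 0 of 9 at 7 dpi, where 6.55% and 4.56% of all genes were counted as higher at 21 and 7 dpi. It shares these genes with the venular list.

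Per cell, venular genes led over capillary genes in a larger share of members at 21 dpi. Each member was thinned at random to 1000 UMIs, so that all cells had the same depth and none was left out. A cell was called venular-marked if Selp and Ackr1 together had more UMIs than Cldn5 and Kdr together, capillary-marked if fewer, and undetermined if equal. Cldn5 is a tight junction protein and Kdr the main VEGF receptor, and arterial cells also carry both, so the capillary-marked cells include arterial ones. Both genes were themselves counted as lower at 21 dpi. The venular-marked share therefore depends on their level as well as on that of Selp and Ackr1. In Gli1+ members 2.51% (1.09 to 4.88), 14.0% (7.66 to 22.7) and 45.0% (38.2 to 51.8) were venular-marked at uninjured, 7 dpi and 21 dpi, from 8, 13 and 98 cells. In Gli1- members the shares were 3.61% (2.96 to 4.35), 16.0% (13.3 to 18.9) and 38.5% (35.9 to 41.2), from 105, 110 and 511 cells. Both sorts had the same order, and their intervals overlapped at each time point. Capillary-marked shares were 65.8%, 39.8% and 28.4% in Gli1+ members against 58.3%, 39.7% and 27.1% in Gli1- members. With 4 genes on each side in place of 2, the venular-marked shares were 2.19%, 9.68% and 33.0% in Gli1+ members and 0.722%, 6.40% and 29.3% in Gli1- members. Capillary-marked cells then outnumbered venular-marked ones at 21 dpi, at 50.5% and 60.8%, whereas the order of the time points was the same. With 2 genes on each side, the rest was undetermined, mostly because none of the 4 genes was detected, as in 100, 42 and 51 Gli1+ and 1091, 297 and 434 Gli1- cells.

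These classes are ranges of a score and not cell types. Venular-marked cells that led by 1 UMI numbered 2, 4 and 17 (Gli1+) and 47, 31 and 99 (Gli1-), and capillary-marked cells that led by 1 UMI numbered 90, 17 and 24 and 870, 160 and 185. Cells with UMIs of both pairs of genes after thinning were few, at 2, 4 and 20 Gli1+ and 45, 23 and 110 Gli1- cells. Before thinning, median depth at 21 dpi was 8936 and 8516 UMIs in venular-marked and 3638 and 2656 UMIs in capillary-marked cells of the Gli1+ and Gli1- libraries. As a background, Selp was found after thinning in at most 1% and Ackr1 in at most 2.8% of Pdgfra-positive cells thinned the same way. These cells held at least 2 Pdgfra UMIs and no UMI of Cdh5 or Pecam1, so this background leaves out cells with those transcripts. At 21 dpi 45.0% of Gli1+ and 38.8% of Gli1- members held Selp, and 21.1% and 18.0% held Ackr1. Among uninjured members Ackr1 was found in 0.313% and 1.34% of cells, below that background. Xist-only Gli1+ members had 5.79% venular-marked cells in uninjured tendon and 51.6% at 21 dpi.

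Capillary genes and genes of lipid uptake were lower after injury. Of the capillary list 7 of 11 genes were counted as lower and 0 as higher at 7 dpi, and 11 of 11 as lower at 21 dpi, where 5.54% and 9.28% of all genes were lower. The median log2 ratios of the list were -2.06 and -1.63 at 7 dpi and -2.14 and -1.90 at 21 dpi in the Gli1+ and Gli1- sorts. Cd36, the fatty acid translocase, stood at 2088, 213 and 228 CPM in Gli1+ members and at 2156, 507 and 369 CPM in Gli1- members, in the order uninjured, 7 dpi and 21 dpi. Every injured library was far below every uninjured one. Its log2 ratio was -3.29 (-3.58 to -3.02) and -2.09 (-2.16 to -2.02) at 7 dpi, and -3.19 (-3.35 to -3.04) and -2.55 (-2.60 to -2.50) at 21 dpi. Gpihbp1, which holds lipoprotein lipase on the capillary wall, stood at 945, 226 and 213 CPM in Gli1+ and at 1245, 350.5 and 258 CPM in Gli1- members. Lpl, the lipase itself, stood at 672, 76.1 and 135 CPM and at 1244, 251 and 168 CPM. Fabp4, a fatty acid carrier and among the most abundant transcripts of the members, stood at 9169, 4014 and 3277 CPM and at 14418, 7339 and 3873 CPM.

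Tcf15, a transcription factor that with Meox2 drives fatty acid uptake in capillary endothelium, was among the 10 lowest ratios of all named genes at 21 dpi. It stood at 485, 70.4 and 33.3 CPM in Gli1+ and at 511, 141 and 33.9 CPM in Gli1- members, a log2 ratio of -3.86 (-4.27 to -3.48) and -3.92 (-4.08 to -3.75) at 21 dpi. Its partner Meox2 stood at 195, 89.4 and 92.4 CPM and at 223, 118 and 95.7 CPM. In the fatty acid list as a whole 5 of 9 genes were counted as lower at 7 dpi and 7 of 9 at 21 dpi, with 0 higher at both, beside 5.54% and 9.28% of all genes. It shares Cd36, Fabp4 and Gpihbp1 with the capillary list, so these counts are not separate. Fabp5 of the fatty acid list was not counted, with 394, 1734 and 428 CPM in Gli1+ members and 702, 1067 and 335 CPM in Gli1- members. The water channel Aqp1 was lowest at 7 dpi in both sorts, with 1875, 276 and 882 CPM and 2603, 815 and 872 CPM. Cldn5 stood at 659, 601 and 319 CPM in Gli1+ and at 546, 300.3 and 174 CPM in Gli1- members. Kdr stood at 753, 270.0 and 246 CPM and at 502, 291 and 225 CPM.

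In Y-only cells the 7 dpi log2 ratios were -3.27 and -2.44 for Cd36, -2.03 and -1.99 for Gpihbp1 and -3.90 and -2.25 for Tcf15 in the Gli1+ and Gli1- sorts. Within Xist-only Gli1+ cells the 21 dpi log2 ratio was -3.86 for Cd36 and -2.55 for Gpihbp1. Aqp1 was at -0.98 in these cells, under 2-fold, so its count as lower did not hold there. Kdr was at -1.53 and Cldn5 at -1.12. Without members holding other cell types' markers Cd36 was at -3.73 and -2.32 in the Gli1+ and Gli1- sorts. The lower levels of Cd36, Gpihbp1 and Tcf15 also held inside the capillary-marked class. There Cd36 stood at 2233, 136 and 675 CPM in Gli1+ and at 2361, 704 and 912 CPM in Gli1- cells, Gpihbp1 at 1017, 225 and 392 CPM and at 1418, 499.6 and 611 CPM, and Tcf15 at 519, 85.1 and 74.7 CPM and at 560.3, 204 and 91.0 CPM. Icam1 and Lrg1 were conversely higher inside the capillary-marked class at 21 dpi, with 401 and 388 CPM of Icam1 against 131 and 128 CPM in uninjured tendon, and 414 and 368 CPM of Lrg1 against 35.6 and 51.0 CPM.

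**Figure D3:**
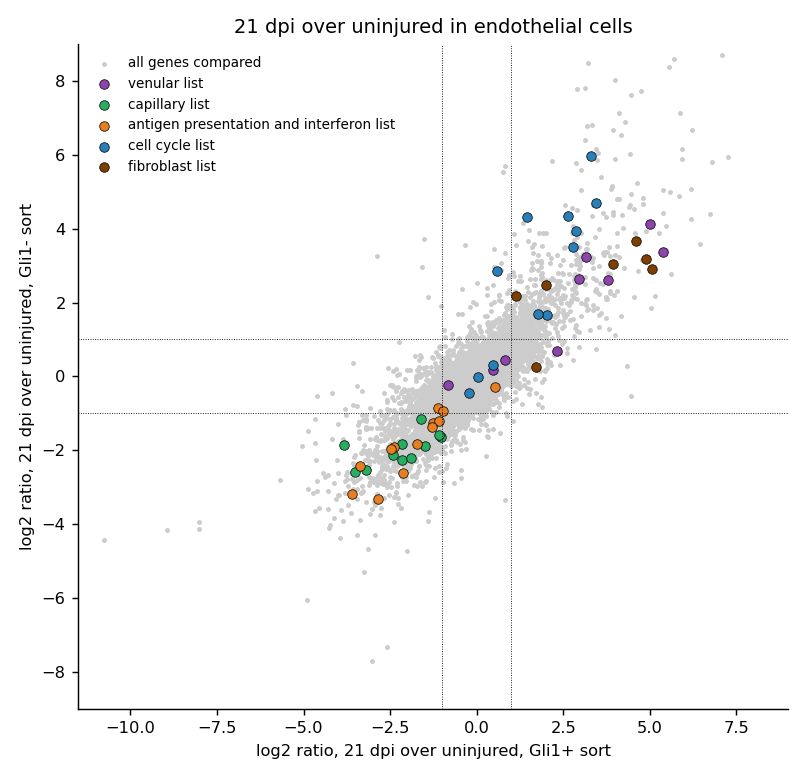
Log2 ratio of 21 dpi over uninjured tendon in Gli1+ (horizontal axis) and Gli1- members (vertical axis); each point is a gene, all genes compared are in grey and 5 lists in colour, with dotted lines at 2-fold. All 11 capillary genes and 10 of 13 genes of the antigen presentation and interferon list lay beyond 2-fold in the lower left, and 5 of 9 venular and 8 of 12 cell cycle genes beyond it in the upper right.

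Interferon-induced genes and class I antigen presentation genes were counted as lower at 21 dpi and not at 7 dpi. In this list 0 of 13 genes were counted in either direction at 7 dpi, and 10 of 13 were counted as lower and 0 as higher at 21 dpi, against 9.28% of all genes. Ifit1, an antiviral RNA-binding protein, stood at 158, 116 and 15.2 CPM in Gli1+ and at 158, 141 and 29.3 CPM in Gli1- members, a 21 dpi log2 ratio of -3.37 (-4.01 to -2.79) and -2.43 (-2.62 to -2.25). Ifit3 stood at 99.6, 156 and 8.19 CPM and at 92.6, 158 and 10.2 CPM, with both 7 dpi libraries above and both 21 dpi libraries far below the uninjured ones. Irf7, the transcription factor that amplifies the interferon response, stood at 87.9, 156 and 12.3 CPM and at 89.4, 149 and 8.98 CPM. The ubiquitin-like Isg15 stood at 328, 243 and 63.2 CPM and at 222, 211 and 59.2 CPM. Bst2, also called tetherin, stood at 458, 546 and 105 CPM and at 477, 469.7 and 77.9 CPM. The class I genes H2-K1 and H2-D1 stood at 1073 and 1135 CPM in uninjured Gli1+ members and at 505 and 464 CPM at 21 dpi. Ly6e, Ifitm3 and Irf1 were the 3 genes of the list not counted. From uninjured to 21 dpi the sum of all 16 list genes went from 8747 to 5318 CPM in Gli1+ and from 9629 to 5139 CPM in Gli1- members. It was also lower in the other barcodes, from 4499 to 2340 and from 4417 to 2880 CPM. In lymphatic endothelial cells it went from 5357 to 3780 and from 6820 to 4988 CPM. Whether the lower level was shared by the whole libraries was not tested.

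These genes stayed lower in other cuts of the members. Within Xist-only Gli1+ cells the 21 dpi log2 ratio was -3.29 for Ifit1, -2.14 for Isg15 and -1.93 for Bst2. Without members holding other cell types' markers it was -2.70 and -1.40 for Isg15 and -1.56 and -2.34 for Bst2 in the Gli1+ and Gli1- sorts. In capillary-marked cells Bst2 stood at 510.2 and 519.7 CPM in uninjured tendon and at 140.0 and 99.2 CPM at 21 dpi, and in venular-marked cells at 188 and 344 CPM and at 98.0 and 76.3 CPM.

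The interferon-stimulated response element is known as the site through which interferon acts on such genes, and their promoters are shown for this reason. Its letters, GAAA followed by any 2 bases and GAAA again, were searched on both strands of the same windows and found in 3.44% of the 32851 promoters and in 7 of 14 promoters of 12 list genes, those of B2m, Isg15, Ifit1, Ifit3, Bst2, Ifitm3 and Gbp2. It was found in 0 of the 6 promoters of the adhesion list. Of the listed genes with the motif, Ifitm3 was not counted as lower. The stretches are given 5′ to 3′ on the gene's strand with the motif in capitals (RefSeq, GRCm38.p6).
Ifit1, chr19:34640775-34640804, plus strand: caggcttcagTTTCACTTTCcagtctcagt
Ifit3, chr19:34583363-34583392, plus strand: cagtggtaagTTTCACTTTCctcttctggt
Isg15, chr4:156200871-156200900, minus strand: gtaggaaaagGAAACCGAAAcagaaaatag
Bst2, chr8:71537583-71537612, minus strand: ggcattccagGAAAATGAAActgaaaggct
Gbp2, chr3:142620594-142620623, plus strand: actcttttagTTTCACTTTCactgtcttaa

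Of the chemokine and cytokine list 7 of 13 genes were counted as higher and 1 as lower at 7 dpi, where 4.56% and 5.54% of all genes were, and 8 of 14 as higher and 2 as lower at 21 dpi, where 6.55% and 9.28% were. The summed level of the list was 2423, 2333 and 3266 CPM in Gli1+ members and 2103, 2758 and 2720.3 CPM in Gli1- members, against 1442, 4488 and 3242 CPM and 3651, 5807 and 3897 CPM in the other barcodes of the same libraries. Csf3, the granulocyte colony-stimulating factor, stood at 4.79, 41.8 and 509 CPM in Gli1+ and at 15.1, 117 and 316 CPM in Gli1- members, a 21 dpi log2 ratio of 6.73 (5.80 to 7.86) and 4.39 (4.16 to 4.63). The neutrophil attractant Cxcl1 stood at 64.5, 342 and 658 CPM and at 125, 427 and 436 CPM. Il1r1, the receptor of interleukin-1, stood at 66.1, 133 and 521 CPM and at 51.2, 201 and 448 CPM, with both 21 dpi libraries above all others. The monocyte attractant Ccl2 was highest at 7 dpi, with 5.86, 158 and 78.4 CPM and 15.5, 189 and 46.6 CPM. Cxcl12, which retains CXCR4-bearing cells, went the other way with 1802, 665 and 266 CPM in Gli1+ members and 1056, 518 and 317 CPM in Gli1- members. Its log2 ratio was -1.44 and -1.03 at 7 dpi and -2.76 and -1.73 at 21 dpi. The interferon-gamma target Cxcl9 was also counted as lower at 21 dpi, with 65.5 and 10.5 CPM in the Gli1+ and 77.5 and 28.6 CPM in the Gli1- sort at uninjured and 21 dpi. Csf3, Cxcl1, Ccl2 and Il6 are also made by fibroblasts, and the fibroblast markers given above were higher in the injured libraries, whose part in these values was not tested.

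Some genes of sprouting, proliferation and basement membrane were higher at both injured time points. Apln, the apelin ligand and a tip cell gene, stood at 2.66, 53.2 and 74.3 CPM in Gli1+ and at 3.16, 65.4 and 80.0 CPM in Gli1- members. Its log2 ratio was 4.32 (2.93 to 6.05) and 4.37 (3.84 to 4.94) at 7 dpi and 4.80 (3.54 to 6.45) and 4.66 (4.17 to 5.20) at 21 dpi, from 5 and 34 UMIs in uninjured tendon. Its receptor Aplnr stood at 33.6, 131 and 96.5 CPM and at 54.8, 218 and 137 CPM. Plvap, which forms the diaphragms of permeable vessels, stood at 258, 473 and 1002 CPM and at 176, 555 and 962 CPM. Angpt2, a destabilizing ligand of the Tie2 receptor, stood at 34.6, 60.8 and 83.0 CPM and at 34.0, 50.8 and 93.6 CPM. In the tip cell list 2 of 13 genes were counted as higher and 2 as lower at 7 dpi, and 5 and 2 of 13 at 21 dpi, with members in both directions. Over all genes 4.56% were higher and 5.54% lower at 7 dpi and 6.55% and 9.28% at 21 dpi, so that the counts of 2 are hard to tell from these shares. Adm and Unc5b were the lower members at both times. In the list of VEGF, Tie, apelin and sphingosine phosphate genes 2 of 12 were counted as higher and 2 as lower at 7 dpi, and 3 and 3 of 13 at 21 dpi, beside the same shares over all genes. Of its higher genes at 21 dpi, Apln and Angpt2 are also in the tip cell list. The lower ones at 21 dpi were the receptor genes Kdr, Flt1 and Nrp1.

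Col18a1, whose product holds the endostatin fragment, stood at 30.9, 388 and 470.2 CPM in Gli1+ and at 26.1, 321 and 575 CPM in Gli1- members, a 21 dpi log2 ratio of 3.93 (3.54 to 4.34) and 4.46 (4.29 to 4.64). Within Xist-only Gli1+ cells it was 4.06. Its relative Col15a1 stood at 54.9, 291 and 400.0 CPM and at 55.3, 329 and 456 CPM. In the basement membrane list 5 of 12 genes were counted as higher at 7 dpi and 4 of 12 at 21 dpi, with 0 lower at both, where 4.56% and 6.55% of all genes were higher. The summed level of that list was 3651, 8007 and 7082 CPM in Gli1+ members and 3352, 8496 and 8781 CPM in Gli1- members, and the other barcodes were also higher after injury, at 2489.9, 9653 and 12852 CPM and at 5939.9, 13204 and 13471 CPM. Whether RNA of those cells had a part in the members' values was not tested. Col4a1, the main type IV collagen chain, stayed uncounted with 754, 1128 and 1116 CPM and 513, 1299.7 and 1469 CPM. In the cell cycle list 4 of 7 genes with enough UMIs were counted as higher at 7 dpi, and 8 of 12 at 21 dpi. Over all genes the shares were 4.56% and 6.55%. The list holds 16 genes, and a gene scarce in uninjured tendon had enough UMIs only if it was more abundant after injury. The difference itself thus bears on which genes were counted, and nothing is read from these counts. The list summed to 235, 631 and 477 CPM in Gli1+ and to 202, 590 and 514 CPM in Gli1- members. In the other barcodes it summed to 432, 651 and 283 CPM and to 132, 455 and 224 CPM. Lymphatic endothelial cells had 136, 1198 and 275 CPM and 150, 1402 and 377 CPM. Each of these populations was thus highest at 7 dpi in both sorts. Mki67, a marker of dividing cells, stood at 5.33, 39.9 and 36.3 CPM in Gli1+ and at 2.88, 51.1 and 32.5 CPM in Gli1- members. Its Gli1- log2 ratio of 4.15 at 7 dpi was 1.26 without members holding other cell types' markers, that of Stmn1 was then 1.29 and that of Top2a 3.97, and at 21 dpi Mki67 was then at 2.37 in the Gli1+ and 1.84 in the Gli1- sort. In Y-only Gli1+ cells Col18a1 stood at 66.3 CPM (43.7 to 96.5) in uninjured tendon and at 404 CPM (345 to 471) at 7 dpi.

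Of the arterial list 3 of 11 genes were counted as lower at 7 dpi and 4 of 11 at 21 dpi, with 0 higher, where 5.54% and 9.28% of all genes were lower. Efnb2, the arterial ephrin ligand, stood at 203, 105 and 71.9 CPM in Gli1+ and at 202, 110.1 and 68.4 CPM in Gli1- members. Hey1, a Notch target, stood at 62.3, 24.7 and 17.0 CPM and at 59.9, 29.8 and 20.3 CPM. In Y-only cells its 7 dpi log2 ratio was -0.93 in the Gli1+ sort, under 2-fold, and -1.12 in the Gli1- sort. The Notch list had 3 of 10 genes lower and 0 higher at each time, with Hey1 shared with the arterial list. In the BMP and TGF-beta list 2 of 13 were lower at 7 dpi and 1 of 14 at 21 dpi, with 0 higher, so the 21 dpi count was below the share over all genes. Bmp6, a ligand that endothelial cells secrete, stood at 407, 17.1 and 33.3 CPM in Gli1+ and at 432, 62.7 and 63.2 CPM in Gli1- members. Its log2 ratio was -4.57 (-5.71 to -3.64) and -2.79 (-2.99 to -2.58) at 7 dpi. Receptor genes of that list were not counted, Eng for example with 674, 354 and 451 CPM and 447, 327 and 473 CPM.

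Immediate early genes, which respond to handling and stress, had 0 of 14 counted at 7 dpi and 1 of 14 lower at 21 dpi, Hspa1a. The flow and vessel tone list had 1 of 8 lower at 7 dpi, Ednrb, and 2 of 8 at 21 dpi, Ednrb and Cav1. Over all genes 5.54% and 9.28% were lower at these times, from which such small counts are hard to tell. Genes of the Gs and PKA pathway, which the study followed in tendon progenitors, were listed as well. Of 13 genes 0 were higher and 1 lower at 7 dpi, and 1 was higher and 2 were lower at 21 dpi, which is near the shares of 4.56%, 5.54%, 6.55% and 9.28% over all genes. Gnas, the Gs alpha subunit, stood at 1459.8, 888 and 1177 CPM in Gli1+ and at 946, 932 and 1011 CPM in Gli1- members. Prkaca, a catalytic subunit of PKA, stayed between 9.94 and 21.0 CPM. Calcrl, the Gs-coupled receptor of adrenomedullin, was the higher gene with 167, 215 and 457 CPM and 160.2, 223 and 359 CPM. Ptger4, a Gs-coupled prostaglandin receptor, stood at 45.3, 13.3 and 4.68 CPM and at 83.5, 30.1 and 9.70 CPM.

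Ranked over all genes by the smaller ratio of both sorts, the 10 highest at 7 dpi were C1qtnf3, Krt14, H19, Nts, Sfrp2, Ecrg4, Tnn, Timp1, Hp and Cxcl5, and the 10 highest at 21 dpi were Mmp13, Slc14a1, Mmp3, Pclaf, Ecrg4, Glycam1, Cd276, Saa3, Ms4a6d and Slfn4. Many of these are known from fibroblasts or keratinocytes, such as Sfrp2, Tnn, Mmp3, Mmp13 and Krt14. In the injured libraries of both sorts, 9 of the 10 genes at 7 dpi, all but Nts, and 4 of the 10 at 21 dpi, Mmp13, Mmp3, Ecrg4 and Saa3, had a higher level in the other barcodes than in the members. Sfrp2 was at 167 and 91.0 CPM in Gli1+ and Gli1- members at 7 dpi and at 383 and 666 CPM in the other barcodes, and Mmp13 at 72.5 and 193 CPM in members at 21 dpi and at 925 and 1281 CPM in the other barcodes. The part of RNA from those cells was not tested. Among genes at least 2-fold higher in members than in the other barcodes of the injured libraries, a condition chosen after seeing the data, the 10 highest were Nts, Apln, Col18a1, Csf3, Tacr1, Fam167b, Upp1, Prnd, Col15a1 and Sele at 7 dpi. At 21 dpi they were Slc14a1, Glycam1, Ms4a6d, Slfn4, Ubd, Apln, Raet1e, Akr1b8, Nts and Rbfox1. This condition was set at the injured time point alone. The difference itself therefore bears on which genes meet it, and the names are a description only. Krt14, a basal keratin, was at 1993 CPM in Gli1+ members at 7 dpi and at 24.0 CPM in Gli1- members. The 10 lowest at 7 dpi were Lyz2, Cyp1a1, Hbb-bt, Pmp2, Cyp4b1, Bmp6, Hbb-bs, Timp4, Klf15 and Lhfpl3, and the lowest at 21 dpi included Hba-a2, Hba-a1, Hbb-bs, Slc1a1, Hbb-bt, Lyz2, Tcf15, Casq2 and Ifit2. Nts, which encodes neurotensin, stood at 5.33, 297 and 115 CPM in Gli1+ members and at 2.14, 127 and 139.9 CPM in Gli1- members. Glycam1, a sialomucin ligand of L-selectin known from high endothelial venules, held 0 and 8 UMIs in uninjured tendon, and stood at 94.2 and 105 CPM at 21 dpi.

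Venular-marked and capillary-marked cells of the same libraries were compared next, which asks how far the 4 class genes speak for the rest of the transcriptome. UMIs were summed per library and class in the 4 libraries with at least 20 cells of both classes, the Gli1+ library at 21 dpi and all Gli1- libraries, and tested with edgeR's quasi-likelihood test with the library as a block and Benjamini-Hochberg adjustment. Selp, Ackr1, Cldn5 and Kdr made the classes and got no test. Of 8914 genes, 5.81% were higher and 6.24% lower in venular-marked cells at an adjusted p under 0.05. These were 518 and 556 genes, against 270 and 363 without the Gli1- library at 7 dpi, 290 and 307 without that at 21 dpi, and 105 and 95 without the block. The libraries are the replicates, and since the labels give both sorts at 21 dpi the same mice, p-values measure the spread between these libraries only.

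Other venular genes followed the class. Of the 7 tested genes of the venular list 6 were higher and 0 lower, the exception being Ephb4 with 0.19 ± 0.16 (log2 fold change ± SE, edgeR adjusted p = 0.535). Icam1 was higher by 2.19 ± 0.12 on the log2 scale (edgeR adjusted p = 2.52e-05), Nr2f2 by 1.79 ± 0.12 (6.41e-05), Vwf by 2.37 ± 0.32 (0.00116) and Lrg1 by 2.94 ± 0.49 (0.00368), each in 4 of 4 libraries. With both sorts of a time point summed, Vcam1 was at 2.05 and lost its call (edgeR adjusted p = 0.0558). Sele was among the 10 largest differences, which were F5, Kcnh1, Sele, Glycam1, Cd14, Csf3, Ptk2b, Cysltr1, Fam174b and Tll1. F5, the coagulation factor V, differed by 5.79 ± 0.53 (edgeR adjusted p = 2.0e-04), and Cd14, the co-receptor of lipopolysaccharide, by 4.39 ± 0.22 (1.66e-05). Il1r1 was higher by 2.72 ± 0.17 (edgeR adjusted p = 5.44e-05). In the chemokine list 6 of 14 genes were higher and 2 lower, and Cxcl12 was lower at -2.04 ± 0.24 (edgeR adjusted p = 5.98e-04). Vwf was higher in venular-marked cells although it was not counted with time. Within that class it stood at 826, 430.4 and 241 CPM in Gli1- cells, in the order uninjured, 7 dpi and 21 dpi.

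Arterial genes were lower in venular-marked cells. Of that list 10 of 11 were lower, and 8 of 9 of the Notch list, beside 6.24% of all genes. Dll4, Hey1 and Jag1 are in both lists, so these counts are not separate. The capillary-marked class includes arterial cells, so the way the classes were made bears on this difference. The 10 largest differences this way were Gja5, Sema3g, Scgb3a1, Timp4, Nebl, Prom1, Aqp7, Hey1, Prdm16 and Gja4. Gja5, the arterial connexin 40, differed by -4.34 ± 0.39 (edgeR adjusted p = 2.0e-04) and Hey1 by -3.45 ± 0.25 (9.42e-05). Of the capillary list 7 of 8 tested genes were lower, with Gpihbp1 at -2.48 ± 0.22 (edgeR adjusted p = 2.0e-04) and Cd36 at -2.53 ± 0.47 (0.00647), while Aqp1 was at 0.54 ± 0.16 (0.0613). Fatty acid genes, some of them shared with the capillary list, were lower in 6 of 9. Emcn was higher by 0.70 ± 0.13 (edgeR adjusted p = 0.00627) and Plvap by 1.94 ± 0.52 (0.0379). The call of Plvap was lost without the Gli1- library at 7 dpi (edgeR adjusted p = 0.145), without the Gli1+ library at 21 dpi (0.0614), with classes from unthinned cells (0.0677) and in DESeq2 (0.0831), and Aqp1 passed without the uninjured Gli1- library, at 0.74 (edgeR adjusted p = 9.43e-04). Genes that were higher in all members at 21 dpi did not all pass the test between the classes. Apln was at -0.28 ± 0.30 (edgeR adjusted p = 0.636), and with classes from unthinned cells at -1.08 (0.00294). In the antigen and interferon list 1 of 13 genes was higher and 2 were lower, and Ifit1 was at 0.15 ± 0.26 (0.787). Counts for the other lists, as higher and lower of those tested, were 1 and 6 of 12 for the tip cell list, 1 and 3 of 12 for the VEGF and Tie list, 1 and 0 of 11 for the cell cycle, 2 and 1 of 12 for the basement membrane, 3 and 0 of 7 for haemostasis, 3 and 3 of 14 for BMP and TGF-beta genes, and 2 and 1 of 11 for the Gs and PKA list. Over all genes 5.81% were higher and 6.24% lower, from which the counts of 1 and 2 in these lists are hard to tell. Of other cell types, 0 of 7 fibroblast genes passed the test, and 1 of 10 pericyte and smooth muscle genes was higher and 1 lower. The lower one was Rgs5, at -2.35 ± 0.56 (edgeR adjusted p = 0.0232), and without the Gli1- library at 7 dpi at -2.06 (0.136).

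**Figure D4:**
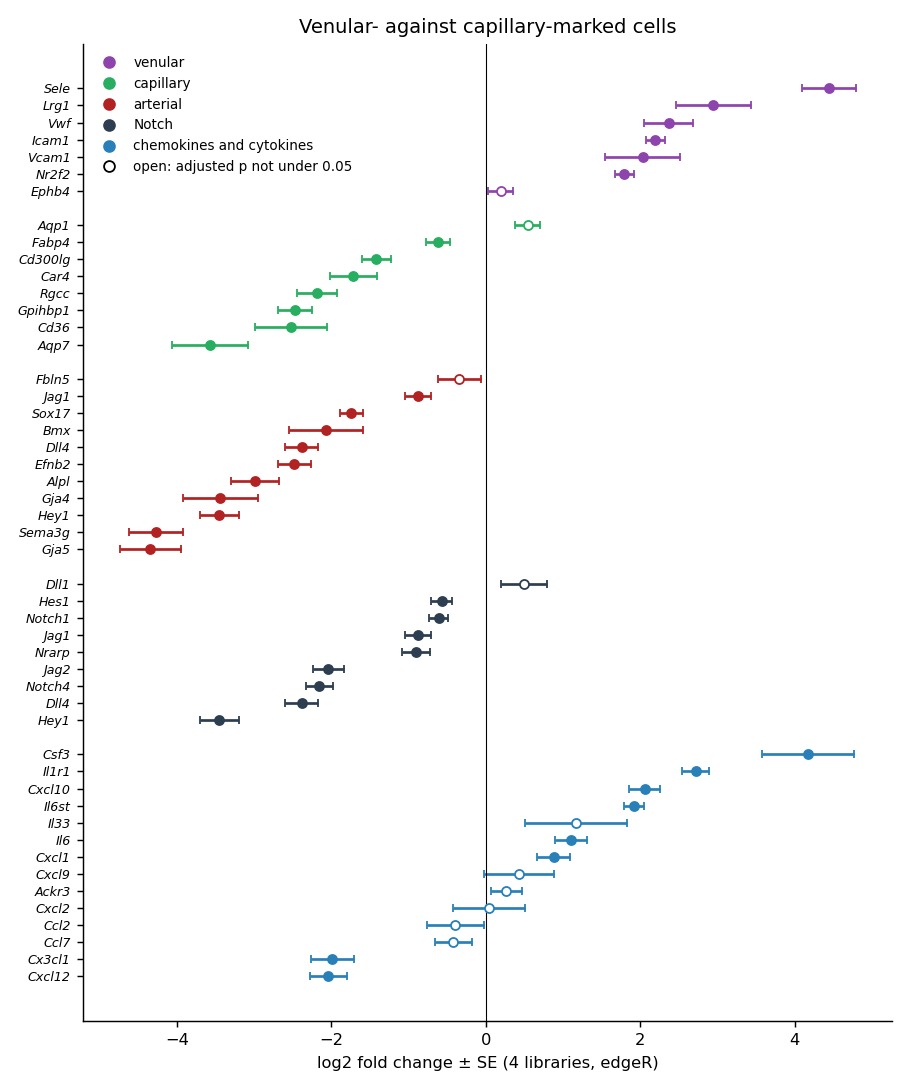
Log2 fold change of venular-marked over capillary-marked cells with its standard error, for the tested genes of 5 lists, from edgeR's quasi-likelihood test over 4 libraries with the library as a block; open circles did not reach an adjusted p under 0.05. Of the venular genes 6 of 7 were higher, and 10 of 11 arterial, 7 of 8 capillary and 8 of 9 Notch genes were lower, while chemokine genes lay on both sides.

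Some levels differed between time points inside the venular-marked class as well. Sele stood at 459, 1143 and 1269.9 CPM, Icam1 at 568, 748 and 1466 CPM, and Il1r1 at 198, 626 and 737 CPM in venular-marked Gli1- cells, in the order uninjured, 7 dpi and 21 dpi. Lrg1 stood at 1388, 1592 and 1379.9 CPM in the same cells, with no order in time. Of these venular-marked Gli1- cells, 47 of 105, 31 of 110 and 99 of 511 led by only 1 UMI. The part of cells with so small a lead in these levels was not tested. Venular-marked Gli1+ cells had 699, 893 and 1575 CPM of Sele, from 8, 13 and 98 cells.

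Lymphatic endothelial cells were taken as the nearest cell type of the series. Both types were compared in the 5 libraries with at least 10 lymphatic cells, which left out the Gli1+ library at 7 dpi with 8, by the same edgeR test with the library as a block. The genes of both rules got no test. By the labels both sorts of a time point share mice, and these 5 libraries would then stand for 3 sets of mice. Sex-linked transcripts of the uninjured sorts went against 1 shared set there, so the number of independent sets is uncertain. The p-values measure the spread between libraries only. A fit with both sorts of a time point summed was not run for this comparison. Of 9965 genes, 8.81% were higher and 6.23% lower in the blood endothelial cells. Their 10 largest differences upward were Hbb-bt, Hba-a1, Hbb-bs, Cxcl9, Hba-a2, Esm1, AW112010, Alpl, C1qtnf9 and Sox17. Cxcl9 differed by 4.82 ± 0.34 on the log2 scale (edgeR adjusted p = 1.16e-05) and Sox17, an arterial transcription factor, by 4.07 ± 0.30 (1.32e-05). The hemoglobin genes are transcripts of red cells, whose part in the members was given above. The lymphatic chemokine Ccl21a was lower by far, at -9.84 ± 0.66 (edgeR adjusted p = 8.53e-06), followed by Reln, Apba2, Slc45a3, Dtx1, Il7, Sh3gl3, Lyve1, Tbx1 and Sema3d, and 6 of 6 tested lymphatic markers were lower.

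Lipid and antigen presentation genes were higher in blood than in lymphatic endothelial cells. Fatty acid genes were higher in 7 of 9 and lower in 1, with Cd36 at 3.46 ± 0.37 (edgeR adjusted p = 1.10e-04) and Tcf15 at 3.90 ± 0.33 (2.66e-05). Flt1 was higher by 3.26 ± 0.21 (edgeR adjusted p = 7.52e-06) and Nrp1, a VEGF co-receptor, by 3.33 ± 0.28 (2.31e-05), whereas Kdr was at 0.32 ± 0.18 (0.319). In the antigen and interferon list 12 of 13 genes were higher, with H2-K1 at 1.06 ± 0.19 (edgeR adjusted p = 0.00324) and B2m at 1.28 ± 0.16 (3.47e-04). The BMP and TGF-beta list had 9 of 15 genes higher and 1 lower, Bmp6 among them at 2.19 ± 0.24 (edgeR adjusted p = 1.22e-04). In the basement membrane list 6 of 12 were higher and 1 was lower, and in the Gs and PKA list 3 and 1 of 12. Over all genes 8.81% were higher and 6.23% lower. Markers of other cell types were also higher, 2 of 7 fibroblast genes (Col1a1, Col3a1) and 2 of 10 pericyte and smooth muscle genes (Abcc9, Pdgfrb), with 0 lower. So were the epidermal Krt10 and the skeletal muscle gene Mylpf. The part of such RNA in these differences was not tested. Cldn5, used above as a capillary gene, was lower in blood than in lymphatic endothelial cells, at -1.76 ± 0.23 (edgeR adjusted p = 3.66e-04). Venular genes mostly did not pass this test. Of that list 1 of 9 was higher and 1 lower, Ackr1 at 3.88 ± 0.53 (edgeR adjusted p = 4.93e-04) and Nr2f2 at -1.47 ± 0.23 (0.00131), while Selp was at 1.44 ± 0.57 (0.135). With lymphatic cells taken from 1 UMI of Prox1 and Mmrn1 together, Ackr1 was at 1.07 (edgeR adjusted p = 0.216), and without the uninjured Gli1- library Selp was higher by 2.10 (0.00261).

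**Figure D5:**
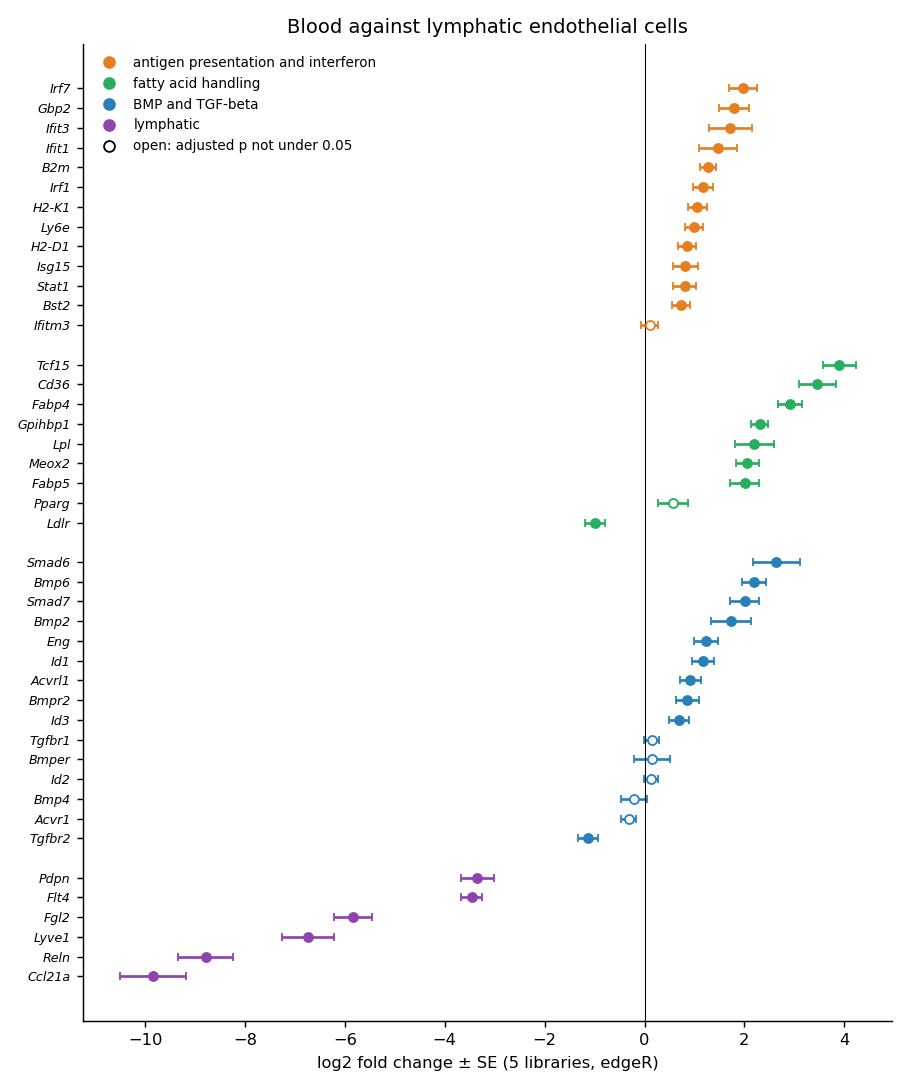
Log2 fold change of blood over lymphatic endothelial cells with its standard error for the tested genes of 4 lists, from edgeR's quasi-likelihood test over 5 libraries with the library as a block; open circles did not reach an adjusted p under 0.05. The 6 lymphatic genes lay to the left of 0, and 12 of 13 antigen presentation and interferon genes and 7 of 9 fatty acid genes were higher.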

How the data were processed

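The authors deposited UMI counts per gene and cell barcode (10x Genomics 3′ libraries), unnormalised whole numbers for 33696 genes, as filtered matrices. The file headers name Cell Ranger 9.0.0, whereas the submitters' processing notes name Cell Ranger 3.1.0 with STAR and mm10, so the version behind these counts is uncertain. The study's methods name Seurat 4.0.0 and DoubletFinder 2.0.3 for later steps, and neither a cell annotation nor integrated values were used here. Each of the 6 conditions (Gli1+ or Gli1- sort, uninjured, 7 or 21 dpi) had 1 library.

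Members were selected by the detection rule given above from barcodes with at least 1000 UMIs, 200 genes and at most 5% mitochondrial UMIs. Their UMIs summed to 1876978, 525931 and 1709994 (Gli1+) and to 10752286, 3287033 and 9687904 (Gli1-) in uninjured, 7 dpi and 21 dpi libraries. No doublets were removed from the members; Scrublet as implemented in scanpy 1.11.5, set to 0.8% per 1000 barcodes, called 11, 6 and 18 Gli1+ and 197, 25 and 112 Gli1- members, and the results were repeated without them.

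Levels were given as CPM over the summed UMIs with exact Poisson 95% intervals, shares with exact binomial and log2 ratios with conditional binomial intervals (Python 3.11.15, numpy 2.4.6, scipy 1.17.1; figures with matplotlib 3.10.9). These intervals cover counting error only. A count of 0 was set to a floor of 3 UMIs per library in a ratio. Cell classes were compared within libraries with edgeR 4.0.16 (R 4.3.3; TMM, filterByExpr, quasi-likelihood F-test, library as a block, Benjamini-Hochberg adjustment over all genes tested, threshold 0.05), with DESeq2 1.42.0 as an alternative. Other alternatives concerned the detection rule, the UMI minimum, the scaling, thinning, the low count filter, the block and each library in turn.

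On simulated counts the test of venular-marked against capillary-marked cells recovered 56% of 2-fold and 100% of 4-fold changes among 8918 genes, with 8 false calls. That of blood against lymphatic cells recovered 61% and 100% among 9969 genes, with 5 false calls. For both of these tests the simulated counts had the same fixed dispersion in all genes. The 2-fold rule for time recovered 97.4% of 4-fold changes at 7 dpi among 8979 genes and 99.5% at 21 dpi among 9469 genes, with 0 false calls. There, unchanged genes were Poisson draws from the same mean at both time points, without any spread between mice or libraries. The 0 false calls therefore say nothing about that spread.

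The members and gene lists were chosen with earlier results of these data known, so list counts are descriptions. Genes were named if they were class or rule genes, led their list by level or by the smaller ratio of both sorts, or were among the 10 largest differences each way. Sex-linked, mitochondrial and unnamed gene models were counted but not named there. Results of some genes that this rule selects are not reported here.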

Additional observations from a re-analysis of the deposited data

Results flagged for a closer look

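Krt15, a keratin of basal epidermal cells, differed in direction between the sorts at 21 dpi over uninjured tendon. Gli1+ members held 8 UMIs at 21 dpi and 26 in uninjured tendon, a log2 ratio of -1.57 (95% interval -2.92 to -0.38). Gli1- members held 21 UMIs at 21 dpi and 0 in uninjured tendon, a log2 ratio of 2.96 (1.21 to 5.35) with the count of 0 set to the floor of 3. The Gli1+ value lay 4.52 below the Gli1- value on the log2 scale (Gli1+ minus Gli1- of -4.52). This difference was not tested, since each condition had 1 library. Krt15 belongs to the epidermal markers, whose summed level in the members is given above with that of the other cell types.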

How the results depend on the processing

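With at least 2 UMIs each of Cdh5 and Pecam1, the shares of members were 3.61%, 0.497% and 1.47% (Gli1+) and 16.0%, 3.79% and 7.83% (Gli1-), always in the sequence uninjured, 7 dpi and 21 dpi. With each barcode thinned to 1000 UMIs first they were 2.30%, 0.338% and 0.673%, and 12.1%, 3.14% and 4.98%. Without doublet calls the uninjured Gli1- share was 24.8%. The order of the time points within a sort was the same under these alternatives. For 7 dpi, 409 genes were counted as higher and 497 as lower, and for 21 dpi 620 and 879. With at least 10 UMIs the higher genes at 7 dpi numbered 615, and with at least 50 UMIs there were 213 higher genes at 7 dpi and 405 higher and 576 lower genes at 21 dpi. With both sorts summed, which drops the demand for both, the counts were 1275 and 1635 at 7 dpi and 1514 and 2359 at 21 dpi. Settings chosen after seeing the data were Xist-only cells for the class shares, Y-only cells for the ratios, genes higher in members than in other barcodes, and classes without cells holding other cell types' markers. Genes at least 2-fold higher in members than in other barcodes numbered 24 of 1157 (higher) and 275 of 1041 (lower) at 7 dpi and 188 of 1295 and 410 of 1058 at 21 dpi. That condition was set at the time point with the higher level, so the difference itself bears on which genes meet it, and nothing is read from these counts. Y-only cells gave 327 lower genes at 7 dpi. Without cells holding other cell types' markers there were 276 higher and 457 lower genes at 21 dpi, from fewer cells. Venular-marked shares were 52.5% in the Gli1+ library at 21 dpi and 4.62%, 23.8% and 51.2% in the Gli1- libraries with cells thinned to 2000 UMIs. Unthinned they were 52.8% (Gli1+ 21 dpi), 19.6% (Gli1- 7 dpi) and 44.0% (Gli1- 21 dpi), and with 4 genes on each side 33.0% (Gli1+ 21 dpi) and 0.722%, 6.40% and 29.3% (Gli1-). Capillary-marked shares were 85.9%, 58.2% and 35.6% (Gli1+) and 76.9% and 52.3% (Gli1- uninjured and 7 dpi) at 2000 UMIs. They were 93.1%, 62.4% and 42.2% and 83.1%, 62.1% and 41.2% unthinned, and 95.9%, 74.2% and 50.5% and 98.0%, 86.3% and 60.8% with 4 genes on each side. In Xist-only cells the venular-marked share was 5.79% (Gli1+ uninjured) and 46.0% (Gli1- 21 dpi) and the capillary-marked share 56.2% and 22.8% in the same libraries. Without cells holding other cell types' markers the venular-marked share was 5.42% and 26.1% in the Gli1- uninjured and 7 dpi libraries, and the capillary-marked share 71.1% in the uninjured Gli1+ library. For venular-marked against capillary-marked cells, edgeR called 518 genes higher and 556 lower, 778 and 879 with no low count filter, and 105 and 95 with no library block. Leaving out 1 library gave 270 to 513 higher and 307 to 545 lower genes, with 290 and 307 without the Gli1- library at 21 dpi and 270 and 363 without that at 7 dpi. Summing both sorts of a time point leaves 1 sum per set of mice as the labels give them. There were then 417 higher and 505 lower genes of 10404. Of the single genes followed, 13 lost and 4 gained a call. For blood against lymphatic cells edgeR called 878 higher and 621 lower genes, 1457 higher with no low count filter and 478 higher with no library block, and 656 to 741 higher and 492 to 621 lower when 1 library was left out. Cxcl2 turned from 0.05 to -0.74 (edgeR adjusted p = 0.0299) between the classes without the Gli1+ library at 21 dpi, and over all libraries left out in turn it ranged from -0.74 to 0.50. Among single genes, 443 of 453 log2 values kept their sign in DESeq2, 213 of 216 with TMM scaling and 640 of 657 without doublet calls. No paired analysis was possible because each time contrast within a sort had 1 library on each side, so the groups compared share fewer than 2 replicate numbers. The sorts, which make 3 pairs over the time points, were not compared by a test. In Xist-only cells a 21 dpi count over both sorts could not be made, since the uninjured Gli1- library had 0 such members, nor could a 7 dpi count without other cell types' markers, since all 93 Gli1+ members at 7 dpi held one. Depth limits the Gli1+ library at 7 dpi most, with 525931 UMIs in its members.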
